A study of Mus musculus with 8 samples.

Results

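The genes described here encode the sliding clamp of DNA replication (Pcna), the subunits of its loader (Rfc1, Rfc2, Rfc3, Rfc4 and Rfc5), the large and middle subunits of the single-strand binding protein RPA (Rpa1 and Rpa2), the flap endonuclease Fen1 and DNA ligase 1 (Lig1). They were taken by name, 10 of 22380 protein-coding genes, but with earlier results of these data known. Their counts beside those of all genes are therefore descriptions. Every deposited binding site within 1 kb of one of their start sites (called a promoter site) or, separately, within 5 kb was collected. The sites are those of the transcription factors E2f3 and Myc, mapped in mouse intestine by ChIP-exo-seq, in which an exonuclease trims immunoprecipitated DNA up to the crosslinked protein. Crypt cells and villus cells came from Rb KO mice, in which Rb was removed with the inducible, intestine-directed recombinase Ah-cre, and from control mice labelled wild type. All carried the mixed background C57BL/6 X 129 X FVB/N. Each combination of genotype, cell type and antibody has 1 library, so there are 8 libraries, no replicate check and no test of any difference below. The number and age of the mice, any pooling, the way crypts and villi were separated, and the share of cells that lost Rb are not stated in the labels used here.

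As background, PCNA is a ring that encircles DNA and holds the polymerase on its template. The RFC complex, with Rfc1 as its large subunit, opens the ring and closes it around primed DNA, and RPA covers the unwound strand. On the lagging strand, where DNA is made in short pieces, FEN1 trims the flap at the end of each piece and LIG1 seals the nick. Genes of replication are textbook targets of the E2F factors, which bind letters such as TTCCCGC, and E2f3 is an activating E2F that Rb holds in check. Myc binds with its partner Max, by preference at the E-box CACGTG. Crypts hold the dividing cells of the intestinal epithelium and villi hold cells that have stopped dividing.

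The 4 E2f3 lists held 27396 sites (Rb KO crypt), 32666 (control crypt), 14843 (Rb KO villus) and 7405 (control villus), and the 4 Myc lists 31397, 159181, 4119 and 7223 in the same order. Read numbers are unknown. Each site is 1 base with a score between 2 and a cap of 999, whose meaning is not stated. A score is therefore read here as a rank in its own list, given as a percentage (1% means that 99 of 100 sites scored lower or the same), and scores of different libraries are printed without interpreting their difference. The same rank from the top is a larger percentage of a shorter list. Binding sites measure neither expression nor the loss of Rb, so the labels could not be checked by markers. Of 6 crypt marker genes, 2, 3, 2 and 0 had an E2f3 promoter site in the 4 E2f3 lists. Of 10 villus enterocyte marker genes none had one in any of them. Over all genes the shares were 21.1%, 15.7%, 13% and 4.83%, so these few genes do not check the labels.

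The sequences at the 17 places with an E2f3 promoter site are shown first, because 16 of them have the E2F motif or a short form of it at the site. In 8 of the 16 it is the short form alone. Each run is 29 bases of mm9 with a site at its middle base, printed 5′ to 3′ on the strand of the gene. Where libraries gave different bases at a place, only 1 of these bases is the middle and was read for letters. The Rb KO crypt site lies outside the last Pcna run, and the control crypt and Rb KO villus sites lie outside the last Rfc1 run. At the Lig1 run from chr7:13864149, the sites of Rb KO crypts and control villi lie outside. Capitals mark the E2F motif where it overlaps the site or directly adjoins it, meaning the word TTCCCGC, the word TTCGCGC, the word TTGCCGC or the word TTGGCGC on either strand. Where the short form alone is there, meaning any of these words without its leading TT, the short form is in capitals. The last Lig1 run has neither.
Pcna, chr2:132078320-132078348, minus strand: agcgggagtccGCGGGAAaatgagtgctc
Pcna, chr2:132078375-132078403, minus strand: ccgaaaagccCGCGCtggcagtggcgccc
Pcna, chr2:132078503-132078531, minus strand: gggccccactcTTCCCGCttccgctcttg
Rfc1, chr5:65726584-65726612, minus strand: ggaggtggctgctacGCGGCAAtttcaca
Rfc1, chr5:65726847-65726875, minus strand: tctgctacttcGCGGGagaagttgttggc
Rfc2, chr5:135058627-135058655, plus strand: ggcctcgggtgGCGGGAAgagcagccacc
Rfc2, chr5:135058786-135058814, plus strand: tagacgtgaggGCGGGccgagctccagga
Rfc3, chr5:152453766-152453794, minus strand: ctttcgcgctcGCGGGAAaactctactgt
Rfc4, chr16:23127775-23127803, minus strand: gccgttctgtgGCGGGAAccgcggtgcca
Rpa1, chr11:75161764-75161792, minus strand: agagcgcgagcGCGGGagttagcggtgca
Rpa1, chr11:75161995-75162023, minus strand: tgcgacccagcgcCCCGCcctcacgtccc
Rpa2, chr4:132323926-132323954, plus strand: ctagcagtttgGCGGGAAaagggggctag
Rpa2, chr4:132324227-132324255, plus strand: gctgtcccttcGCGGGAAggagtttgtgg
Fen1, chr19:10278397-10278425, minus strand: tgacgagagcGCGGGctttggaaggcggc
Lig1, chr7:13863888-13863916, plus strand: ccccgcgcggtatCCCGCctttcttcccc
Lig1, chr7:13864149-13864177, plus strand: ctactcgcaggccCCCGCccttgctcgtc
Lig1, chr7:13890288-13890316, plus strand: ctctgtctggccagtgccagtcaaatctc

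In 7 places of 5 genes (Pcna, Rfc2, Rfc3, Rfc4 and Rpa2) the word TTCCCGC was centred exactly on the middle base, and in 6 of them it read GCGGGAA on the strand of the gene. In 8 further places, of 6 genes, the short form alone lay at the middle base. The short form is common, as it lies within 50 bp of 53.6% of all start sites. The caller can use sequence when it sets a position: over all E2f3 sites with the motif within 50 bp, 71.6% to 83.7% per library and motif strand lay exactly at its centre. All positions given here are also the deposited ones plus 1, a base added because it brings the motif's centre to the site in these lists. The exact match of letters and site is therefore not independent of how the sites were placed or counted.

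E2f3 had a promoter site at 9 of the 10 genes in Rb KO crypts, where 21.1% of all protein-coding genes had one, and at 9 in control crypts, against 15.7% of all genes. In Rb KO villi 8 of the 10 genes had an E2f3 promoter site, against 13% of all genes. In control villi 4 of them did, Rfc2, Rfc4, Rpa2 and Lig1, against 4.83% of all genes. Rfc5 had no promoter site in any library. Myc had a promoter site at 2 of the 10 genes in Rb KO crypts (Rfc1 and Lig1; 9.59% of all genes), at 2 in control crypts (Rpa1 and Lig1; 21.7%), and at 0 in Rb KO villi (0.603%) and 0 in control villi (1.04%).

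**Figure D1:**
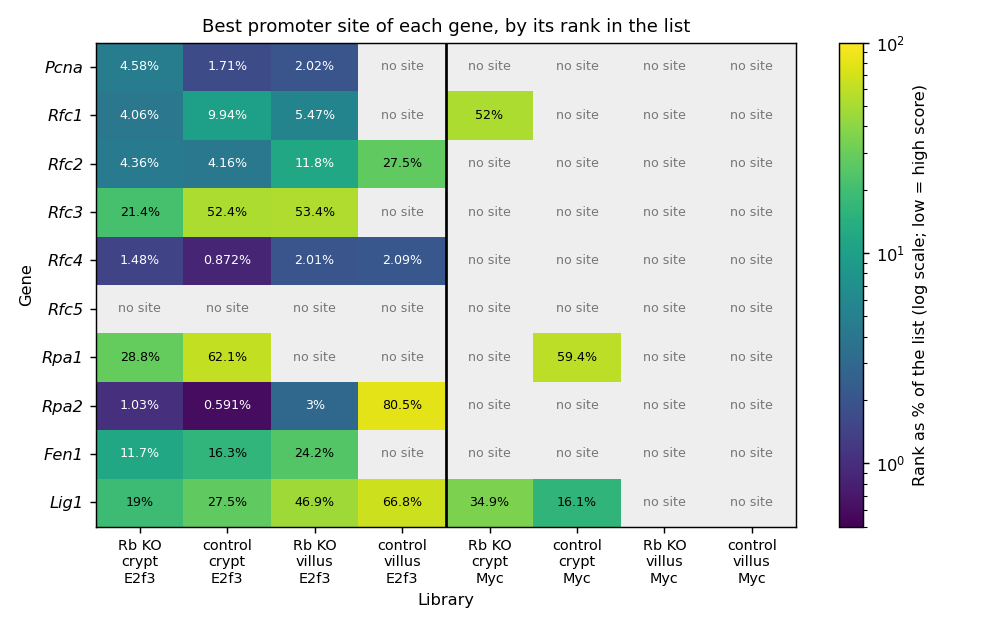
Rank of the best-scored promoter site of each gene (rows) in each library (columns), as a percentage of the list on a log colour scale, with grey cells where the list holds no promoter site. The E2f3 columns are filled for 9, 9, 8 and 4 genes, left to right, and the Myc columns for 2, 2, 0 and 0; Rfc5 is empty throughout.

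The clamp gene Pcna had E2f3 sites in 3 libraries and none in control villi. Its best-scored site lay at chr2:132078389 in Rb KO crypts (score 70.99, rank 4.58%), at chr2:132078391 in control crypts (120.38, 1.71%) and again at chr2:132078389 in Rb KO villi (74.97, 2.02%). These positions, 2 bp apart, lie 525 to 527 bp downstream of the nearest coding start, in an intron, and 51 to 53 bp upstream of the start of a non-coding transcript of the gene. A second place held sites at chr2:132078537 in Rb KO crypts (score 40.65) and at chr2:132078517 in control crypts (10.61) and Rb KO villi (17.97), and a site at chr2:132078334 was listed in Rb KO crypts alone (62.57). Myc had 2 sites within 5 kb of Pcna, both in control crypts and both outside 1 kb, at 1641 bp upstream and 2293 bp downstream of a start.

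Of the loader genes, Rfc4, a small subunit, had the highest-ranked site in each of the 4 E2f3 lists. Its site lay at chr16:23127789 in all 4 E2f3 libraries, 1 bp downstream of a coding start and in the 5′ UTR. The score was 142.4 in Rb KO crypts, 170.19 in control crypts, 75.12 in Rb KO villi and 76.96 in control villi, which placed it at ranks 406, 285, 298 and 155 of the lists. It was thus within the top 2.09% of every E2f3 list, control villi included.

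Rfc2, another small subunit, likewise had 1 base in common to all 4 E2f3 libraries, chr5:135058641, 81 bp downstream of its only annotated start and in the 5′ UTR. Its score was 73.25 in Rb KO crypts and 74.67 in control crypts, or ranks of 4.36% and 4.16%. It was 23.52 in Rb KO villi and 14.21 in control villi, or ranks of 11.8% and 27.5%. As a percentage, the Rfc2 site therefore stood high in both crypt lists and nearer the middle of the control villus list. Rfc4 stood near the top of the latter. Counted from the top, the ranks of the Rfc2 site were 1194, 1358, 1745 and 2038 in the same order of lists. The change in percentage thus also reflects list length, as the control villus list is the shortest of the 4. A weaker second site, 240 bp downstream, was listed in Rb KO crypts alone (score 10.04).

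Rfc3 had its site at chr5:152453780, in the 5′ UTR, 3 bp upstream of a non-coding start and 37 bp downstream of the coding start, in 3 libraries. The score was 23.47 in Rb KO crypts, 10.05 in control crypts and 6.73 in Rb KO villi, at ranks of 21.4%, 52.4% and 53.4%, and no site was listed in control villi. Its ranks were lower than those of Rfc1, Rfc2 and Rfc4 in each of these 3 lists.

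Rfc1, the large subunit, had sites spread over 27 bp and none in control villi. They lay at chr5:65726861 in Rb KO crypts (score 76.18, rank 4.06%), chr5:65726885 in control crypts (43.44, 9.94%) and chr5:65726888 in Rb KO villi (39.91, 5.47%), 6 to 18 bp upstream of the nearest start. All 3 were in the 5′ UTR, downstream of the gene's outermost coding start. A separate site 205 bp downstream was listed in Rb KO villi alone (6.32). Rfc5, the remaining small subunit, had no site within 1 kb, although letters of the E2F motif lie within 250 bp of its coding starts. Its only E2f3 sites within 5 kb, in 3 lists and with scores of 4.26 to 6.16, lay in its 3′ UTR, 10131 to 10145 bp from the nearest coding start, and counted only through the start of an internal non-coding transcript 1302 to 1316 bp away.

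The RPA genes differed from each other in rank and in the number of libraries. Rpa2 had E2f3 sites in pairs, 307 bp and 6 bp upstream of its first start, each centred on GCGGGAA. The site at 307 bp (chr4:132323940) scored 184.13 in Rb KO crypts, 200 in control crypts and 56.84 in Rb KO villi, at ranks of 1.03%, 0.591% and 3%, and was not listed in control villi. The site at 6 bp (chr4:132324241) was in all 4 lists, with 145.32 in Rb KO crypts, 96.18 in control crypts, 43.34 in Rb KO villi and 4.25 in control villi. It ranked at 1.45%, 2.58% and 4.82% in the first 3 and at 80.5% in control villi, so what remained of Rpa2 in that list was a low-ranked site.

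Rpa1 had its E2f3 site in the crypt lists alone, at chr11:75161778, 34 bp downstream of a coding start and in the 5′ UTR. The score was 18.13 in Rb KO crypts and 7.89 in control crypts, at ranks of 28.8% and 62.1%. A second site, 183 bp upstream, was listed in Rb KO crypts (3.53). The gene Smyd4 starts on the other strand 157 bp from the first site and 12 bp from the second, so these sites cannot be assigned to either gene by position.

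Fen1 had an E2f3 site 19 to 22 bp downstream of a start, in the 5′ UTR, in 3 libraries. It lay at chr19:10278411 in Rb KO crypts (score 37.97, rank 11.7%), chr19:10278414 in control crypts (30.36, 16.3%) and chr19:10278412 in Rb KO villi (13.85, 24.2%), with none in control villi. The divergent gene 1810006K21Rik starts 90 to 93 bp away.

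Lig1 had E2f3 promoter sites in all 4 libraries, but at a different base within a place. The site at its start lay at chr7:13864189 in Rb KO crypts (score 25.96, rank 19%) and control villi (5.95, 66.8%), and 26 bp away at chr7:13864163 in control crypts (19.69, 27.5%) and Rb KO villi (2.94, 89.2%). A second place, at chr7:13863902, 263 bp upstream, scored 19.66 in Rb KO crypts, 5.57 in control crypts and 7.71 in Rb KO villi. The divergent gene 6330408A02Rik starts 93 to 119 bp from these sites.

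By rank, the order of the genes in the crypt lists was the same apart from Rfc1 and Pcna, which exchanged places. In Rb KO crypts the best sites ranked, from the top, Rpa2 (1.03%), Rfc4 (1.48%), Rfc1 (4.06%), Rfc2 (4.36%), Pcna (4.58%), Fen1 (11.7%), Lig1 (19%), Rfc3 (21.4%) and Rpa1 (28.8%). In control crypts they ranked Rpa2 (0.591%), Rfc4 (0.872%), Pcna (1.71%), Rfc2 (4.16%), Rfc1 (9.94%), Fen1 (16.3%), Lig1 (27.5%), Rfc3 (52.4%) and Rpa1 (62.1%). In Rb KO villi the order was Rfc4 (2.01%), Pcna (2.02%), Rpa2 (3%), Rfc1 (5.47%), Rfc2 (11.8%), Fen1 (24.2%), Lig1 (46.9%) and Rfc3 (53.4%). In control villi it was Rfc4 (2.09%), Rfc2 (27.5%), Lig1 (66.8%) and Rpa2 (80.5%), so Rfc4 alone stood near the top of that list. With no replicates, no neighbours in these orders can be said to differ.

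For the comparison of Rb KO with control, the 9 genes with a promoter site in Rb KO crypts were the 9 with one in control crypts, so none was found in Rb KO crypts only or control crypts only. Over all genes, 12.8% had a site in both crypt lists, 8.31% in Rb KO only and 2.91% in control only. In villi, 4 genes (Pcna, Rfc1, Rfc3 and Fen1) had a site in Rb KO only, as did 8.95% of all genes, and 4 (Rfc2, Rfc4, Rpa2 and Lig1) had one in both, as did 4.01%. None had one in control villi only (0.818% of all genes), and Rfc5 and Rpa1 had none in either villus list.

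The Rb KO villus list is longer than the control villus list, which by itself gives more genes a site. When every E2f3 list was reduced to its 7405 best-scored sites, 7 of the 10 genes had a promoter site in Rb KO villi (7.33% of all genes) and 4 in control villi (4.83%). Pcna, Rfc1 and Fen1 then remained in Rb KO villi only, as did 4% of all genes, while Rfc3 had no site left. In the crypt lists so reduced, 8 genes had a site in Rb KO (7.82%) and 6 in control (5.14%). Of these, 2 genes, Rfc3 and Lig1, then had one in Rb KO crypts only (3.25% of all genes). The part that sequencing depth, which is unknown, has in these counts was not tested.

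Between crypt and villus, 1 of the 10 genes had an E2f3 site in crypts alone in Rb KO mice and 5 had one in crypts alone in control mice. The gene in Rb KO mice was Rpa1 (the same pattern held for 9.82% of all genes), and 8 had one in both (11.3%). The genes in control mice were Pcna, Rfc1, Rfc3, Rpa1 and Fen1 (11.4%), and 4 had one in both (4.37%). No gene had a site in villi alone in Rb KO (1.64%) or control mice (0.456%). With each E2f3 list reduced to its 7405 best-scored sites, the gene with a site in Rb KO crypts and not in Rb KO villi was Rfc3 in place of Rpa1 (2.43% of all genes). In control mice 3 genes, Pcna, Rfc1 and Fen1, then had one in crypts alone (1.92%). Whether the difference between the genotypes exceeds the variation between mice could not be tested, and crypt and villus lists differ in length within both genotypes.

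**Figure D2:**
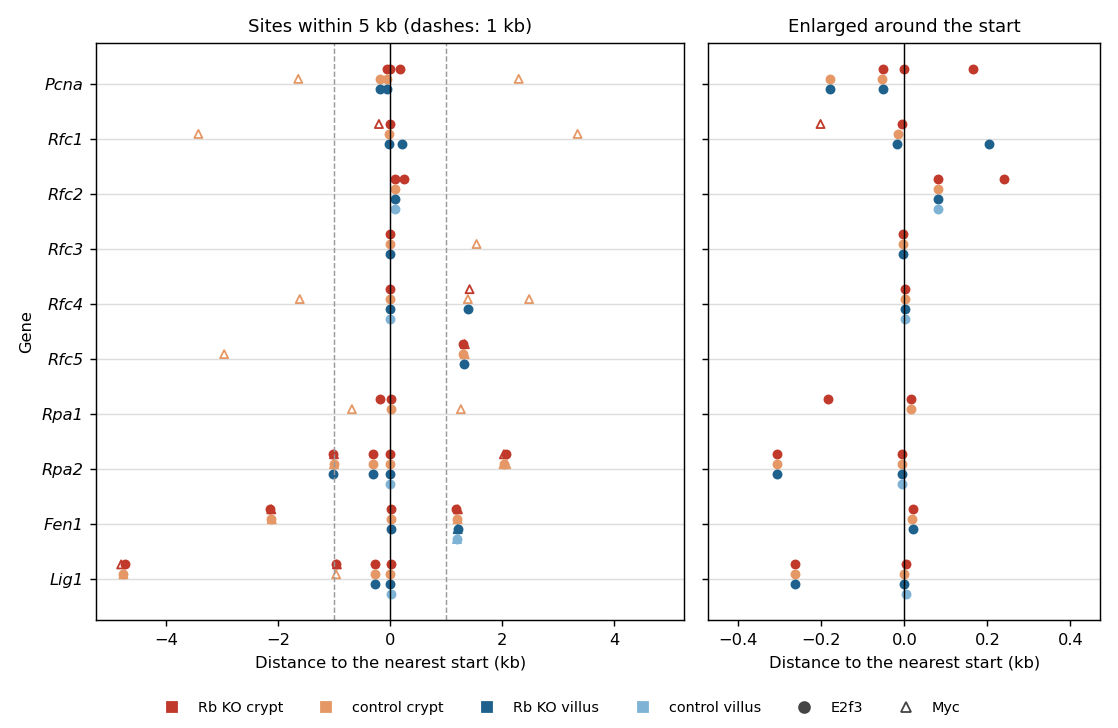
Distance of every site from the nearest start of its gene, in kb, with upstream to the left of 0, within 5 kb (left) and within 0.45 kb (right). Circles are E2f3 sites, triangles Myc sites and colours the 4 combinations of genotype and cell type; E2f3 sites at places where no library had a Myc site lie within 307 bp of a start.

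Within 50 bp of each other, the sites of all lists formed 35 places. Sites of E2f3 libraries alone made up 16 of them, in 9 genes, all within 307 bp of a start of any transcript, and 12 of the 16 had the E2F motif within 50 bp while all 16 had its short form. Sites of both antibodies made up 8 places, in 5 genes, all between 951 and 4802 bp from a start, and none of them had the motif or its short form. Myc libraries alone gave the other 11 places, with the motif in 0 and the short form in 1.

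From coding starts alone, the sites at these 16 places lay within 310 bp, apart from those of Pcna at 379 to 582 bp.

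The places also differed in how closely the libraries agreed. Of the 12 E2f3-only places seen in 2 or more libraries, 7 had 1 base in common to every library that listed them. The widest spanned 27 bp. All 8 places with both antibodies were spread, over 15 to 60 bp with a median of 30.5 bp. They pool 3 to 8 sites each, against 2 to 4 at the E2f3-only places, and more sites can span more bases. At other promoters, sites shared by Rb KO and control crypts within 250 bp were at the same base in 87.1% of cases with the E2F motif at the site and in 31.0% without it. In villi the shares were 85.2% and 29.1%. Among the genes described here, the closest promoter sites of Rb KO and control were at the same base in 6 of 9 genes in crypts. In villi they were so in 3 of 4. Whether the factor or the caller sets this agreement cannot be told apart. Rpa1 at 17 bp and Lig1 at 263 bp were the places without the full motif within 50 bp at which the libraries listing them gave 1 base. These were 2 libraries for Rpa1 and 3 for Lig1.

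**Figure D3:**
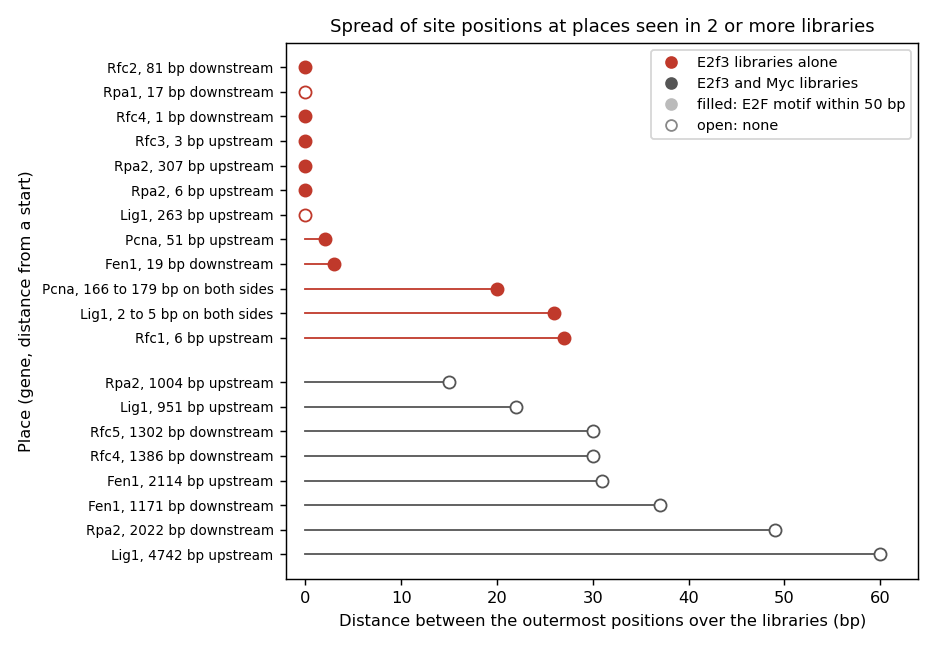
Distance in bp between the outermost site positions at each place seen in 2 or more libraries, in red for places of E2f3 libraries alone and in grey for places with both antibodies; filled points have the E2F motif within 50 bp. Of the 12 red places, 7 stand at 0 and none exceeds 27 bp, whereas the 8 grey places run from 15 to 60 bp and are all open.

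Among the promoter sites of the 10 genes, 11 of 16 in Rb KO crypts had the E2F motif within 50 bp (68.8%, 95% Clopper-Pearson interval 41.3 to 89.0%), as had 10 of 12 in control crypts (83.3%, 51.6 to 97.9%), 11 of 12 in Rb KO villi (91.7%, 61.5 to 99.8%) and 4 of 4 in control villi (100%, 39.8 to 100%). These intervals cover counting error only, and sites of a gene share a target. Other promoter sites of the same lists had it in 31.7%, 36.8%, 36.9% and 54.7% of cases, and 4.97% of all start sites had it within the same distance. The short form lay within 50 bp of 53.6% of all start sites, so its presence at every E2f3-only place says less. The median distance from the sites of the 10 genes to a start of any transcript was 36.5, 18.0, 36.0 and 5.5 bp in the 4 lists, against 135, 187, 129 and 204 bp at other promoters. The 10 genes carry 5.80 annotated starts each, against 3.13 over all genes. To coding starts alone the medians were 132, 35.5, 59.0 and 7.0 bp, against 152.5, 218, 140 and 223 bp, so in Rb KO crypts the distances were then close.

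Between the Myc crypt lists, Rfc1 had a promoter site in Rb KO only (3.19% of all genes), Lig1 in both (6.4%) and Rpa1 in control only (15.3%). In villi 0 of the 10 genes had one in Rb KO only (0.192%), in both (0.411%) or in control only (0.63%). Myc sites at these genes were mostly away from the starts, with 2 genes within 1 kb and 6 within 5 kb in Rb KO crypts. In control crypts they were 2 and 9. Over all genes the share likewise rose from 9.59% to 22.8% in Rb KO crypts and from 21.7% to 57.1% in control crypts. The promoter site of Rfc1 in Rb KO crypts, at chr5:65727111, is shown here because it alone lies on the preferred Myc letters, with the E-box CACGTG in capitals.
Rfc1, chr5:65727097-65727125, minus strand: tgcccttgcagCACGTGcgtgtactgcag
It lay 202 bp upstream of a start and 250 bp from the E2f3 site of the same cells, with a score of 9.22 and a rank of 52.0%. An E-box lay within 50 bp of 27.5% of other promoter sites in that Myc list, 3.70% of those in the control crypt Myc list and 2.93% of all start sites. No Myc site was listed there in control crypts, whose list is the longest of all. Rpa1 had a Myc promoter site in control crypts alone, 684 bp upstream (chr11:75162510, score 9.74), and 513 bp from the start of Smyd4. In Lig1 the Myc sites at chr7:13890324 in Rb KO crypts (13.92) and chr7:13890310 in control crypts (46.88) lay in an intron, 951 to 965 bp upstream of an internal coding start, next to an E2f3 site of Rb KO crypts at chr7:13890302 (14.2).

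Within 5 kb, E2f3 had a site at 10 of the 10 genes in Rb KO crypts (31.2% of all genes), 10 in control crypts (28.2%), 9 in Rb KO villi (19.1%) and 5 in control villi (8.43%). Myc had one at 6 genes in Rb KO crypts (22.8%), 9 in control crypts (57.1%), 1 in Rb KO villi (2.68%) and 1 in control villi (4.47%). The last of these is Fen1 in both lists. With coding starts alone the counts were 9, 9, 8 and 5 for E2f3 and 5, 8, 1 and 1 for Myc, as Rfc5 dropped out of each list that held it. The share of all genes was not computed for coding starts alone.

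The Fen1 place within 5 kb was the sole one found in all 8 libraries, and it is printed because no E2F letters or E-box occur in it.
Fen1, chr19:10277167-10277195, minus strand: gaaaagacacagtgaagtaagactgggaa
It lies in an intron, 1171 to 1208 bp downstream of the nearest start, with positions spread over 37 bp. The E2f3 scores were 27.56 in Rb KO crypts, 50.53 in control crypts, 22.22 in Rb KO villi and 4.52 in control villi. The Myc scores were 26.98, 234.0, 3.89 and 6.40 in the same order. In each of the 4 combinations the E2f3 and Myc sites were near each other, at 37 bp in Rb KO crypts, 6 bp in control crypts, 1 bp in Rb KO villi and 3 bp in control villi. In control villi this was the only E2f3 site within 5 kb of Fen1, whose site at the start was absent there.

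Such neighbouring of the antibodies was also counted over the lists as a whole and at promoters. Of all E2f3 sites, 58.0% had a Myc site of the same cells within 250 bp in Rb KO crypts, 84.9% in control crypts, 21.4% in Rb KO villi and 54.3% in control villi. Of the promoter sites of the 10 genes, 1 of 16 (the Lig1 site in the intron) had a Myc site within 50 bp in Rb KO crypts, or 6.25%, and 0 of 12, 0 of 12 and 0 of 4 in control crypts, Rb KO villi and control villi. At other promoters the shares were 12.7%, 28.5%, 3.39% and 11.4%. With these few sites, whether the 10 genes differ from other promoters cannot be told and was not tested. Within 250 bp, 2 genes (Rfc1 and Lig1) had promoter sites of both antibodies in Rb KO crypts. The share of all genes with such a pair was not computed, so this count has no background. In Rpa2 such neighbours lay just outside the 1 kb limit, 9 bp apart in Rb KO crypts and 3 bp apart in control crypts, at 1004 to 1013 bp upstream of a start. Among those other sites the E2F motif was seldom present beside a Myc site, in 5.48%, 3.28%, 0% and 0% of cases, and more often without one, in 35.5%, 50.1%, 38.2% and 61.7%. Without an input or mock precipitation among the analysed libraries, the level that places shared by both antibodies would reach in a control is unknown.

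Other replication genes were counted in the same way, from lists chosen with results of these data known. Of 57 such genes, 49 had an E2f3 promoter site in Rb KO crypts, 44 in control crypts, 42 in Rb KO villi and 31 in control villi. The shares of all genes were 21.1%, 15.7%, 13% and 4.83%. Myc had a promoter site at 11, 19, 0 and 1 of the 57, against 9.59%, 21.7%, 0.603% and 1.04% of all genes. The 6 subunits of the MCM helicase, which unwinds DNA, had 6, 5, 6 and 4 genes with an E2f3 site, in the same order of lists. The 15 genes of origin firing and the fork had 15, 14, 14 and 9, the 12 of polymerases and primase 11, 9, 10 and 10, and the 9 of origin licensing 7, 7, 4 and 4. The 10 genes described here, with 9, 9, 8 and 4, thus had a lower count in control than in Rb KO villi, as had the MCM and firing lists, whereas the polymerase and licensing lists had equal counts in both villus lists.

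**Figure D4:**
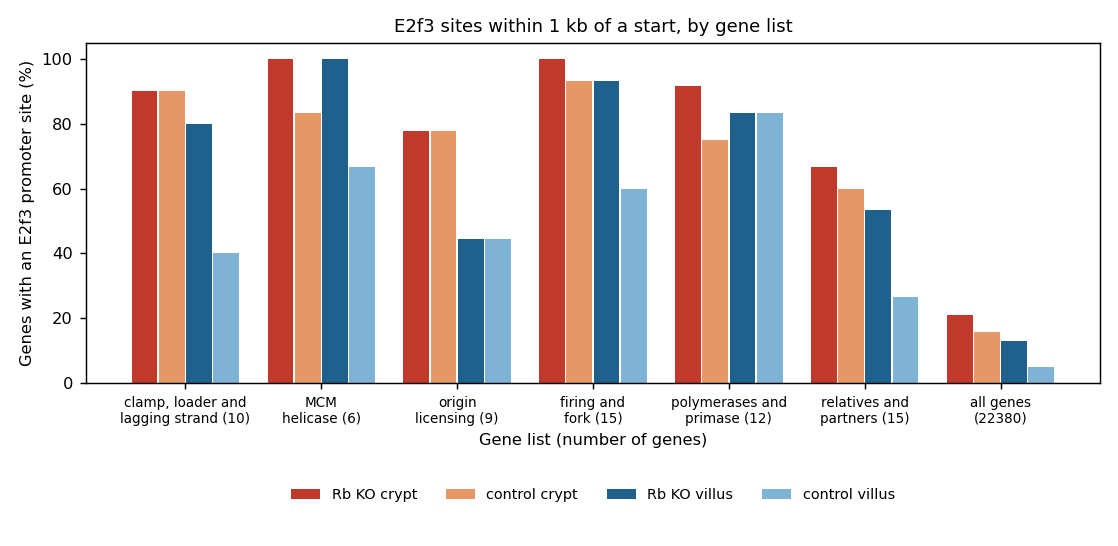
Percentage of the genes of each list with an E2f3 site within 1 kb of a start, in the 4 E2f3 libraries, with all 22380 protein-coding genes at the right; the number of genes stands under each list. The 10 genes with 9, 9, 8 and 4 bound stand well above the 21.1, 15.7, 13 and 4.83% of all genes, as do the other replication lists. These genes and lists were chosen with earlier results of these data known.

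The closest relatives and partners of the 10 genes, 15 in number, had 10, 9, 8 and 4 genes with an E2f3 promoter site. Over all genes the shares were 21.1%, 15.7%, 13% and 4.83%. Atad5, whose product forms a loader with the small RFC subunits and takes PCNA off DNA, had a site in all 4 lists with scores of 216.67 in Rb KO crypts, 206.84 in control crypts, 79.75 in Rb KO villi and 60.88 in control villi, the last at a rank of 2.84%. Pclaf, a PCNA-binding protein, stood at the cap of 999 in both crypt lists and at 72.53 in Rb KO villi and 15.27 in control villi. Rad9a, of the checkpoint clamp that resembles PCNA, and Dna2, a nuclease that trims long flaps, also had a site in all 4 lists. Chtf18, Rad1 and Rnaseh2b had one in every list except control villi, Dscc1 and Rnaseh2a in the crypt lists alone, and Hus1 in both Rb KO lists alone. The other 5, Chtf8, Rad17, Rpa3, Rnaseh2c and Lig3, had no E2f3 promoter site.

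Other genes with the most similar ranks were sought over the 8 libraries, by the mean absolute difference in rank percentile of the best promoter site. A gene without a site in a list was set to 0 there. Lists in which both genes lack a site thus add nothing to the difference. The nearest to Rfc4 were Smpd4 (0.130 percentile points) and Atad5 (0.230), to Rfc2 2310067B10Rik (0.518) and Tfb1m (0.992), and to Rpa2 Cenpc1 (0.584) and Nnt (0.801). Pcna was nearest to Ccr9 and Slc6a20a (0.599 each, a tie) and Rfc3 to Mdh1 and Wdpcp (1.33 each, a tie). Fen1 was nearest to B230219D22Rik (0.403) and Cnnm4 (0.445), and Rfc1 to Birc5 (1.91) and Tcof1 (2.63). Rpa1 was nearest to Csrp1 (3.17) and Ccdc163 (3.31), and Lig1 to Phtf2 (5.06) and Eea1 (5.46), the largest differences among these genes. Lig1 also had a promoter site in more lists than any of the others. The plain pattern of presence was common: 573 genes, 2.56% of all, shared that of Pcna, Rfc3 and Fen1 over the 8 lists, and 403, or 1.80%, that of Rfc2, Rfc4 and Rpa2.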

How the data were processed

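ChIP-exo-seq of E2f3 and Myc was available as 8 deposited site lists, 1 per library. The submitters' processing notes list the tools Bowtie2 2.2.1 and MACS2 2.0.10 and the build mm9. File names describe the deposited sites as GEM events overlapping MACS2 peaks, from merged data with duplicates kept; what was merged, the GEM version and the thresholds are not given in these sources. The deposited score of each site is the authors' value, of unstated meaning and normalization, and was used only for ranks within a list. Deposited positions were taken to count from 0, and 1 was added, because the centre of the nearest E2F motif then lay at a median offset of 0 bp on both strands rather than 1 bp. Exact centring on that motif partly follows from this choice.

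Distances were computed in Python 3.11.15 (pandas 2.3.3, pysam 0.24.0) to 70064 start sites of all transcripts of 22380 protein-coding genes in GENCODE M1, with sequence from NCBIM37. For each library, genes with a site within 1 kb or 5 kb were counted beside all genes. Sites within 50 bp of each other were joined into places. Scripts were tested on simulated data. The members and lists were chosen with earlier results of these data known. All 10 genes are named, and so are genes starting within 1 kb of their promoter sites, the 2 nearest genes by rank, and relatives with an E2f3 promoter site. The relatives without one were named after their values were seen. Motifs, windows, score minimum, list length and start sites were varied.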

Additional observations from a re-analysis of the deposited data

How the results depend on the processing

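Of 148 alternative values of 44 results, 100 stayed within 1.5 times a count or within the interval of a share, and 48 moved. Using coding starts alone moved none of 16 values, and requiring shared sites within 250 bp or 50 bp moved none of 12.
Reducing all lists to the 4119 best-scored sites moved 21 of 36. Genes with a promoter site numbered 5 in control crypt and 2 in control villus E2f3 lists, and 0 in both crypt Myc lists. Within 5 kb they numbered 6 in both crypt E2f3 lists, 2 in control villi, and for Myc 0, 1 and 0 in Rb KO crypts, control crypts and control villi. In pairs, 1 gene was in Rb KO crypts only, 5 in both crypt lists, 2 in both villus lists, 0 in Rb KO crypt Myc only and 0 in both crypt Myc lists. Between crypt and villus, 0 genes were in Rb KO crypts only, 3 in control crypts only (Pcna, Rfc1, Rpa2) and 2 in both control lists. The wider replication lists had 0 Myc genes in all 3 lists that had any.
Reducing the E2f3 lists alone to 7405 sites, a setting chosen after seeing the data, moved 2 of 12. It gave 2 genes in Rb KO crypts only (Rfc3, Lig1; 3.25% of all genes) and 3 in control crypts but not control villi (Pcna, Rfc1, Fen1; 1.92%). Shares of all genes were not computed for the 4119 sites, the score minimum, the 500 bp window or the pairs at 5 kb.
A score of at least 10 moved 12 of 28. It left 2 genes (Rfc2, Rfc4) in control villi at 1 kb and 5 kb, and so 2 in both villus lists and 2 in both control lists. It gave 1 gene in Rb KO crypts only (Rpa1), 3 in Rb KO crypts but not villi (Rfc3, Rpa1, Lig1), 1 Myc promoter gene in each crypt list (Lig1), 0 in Rb KO crypt Myc only, and within 5 kb 3 Myc genes in Rb KO crypts and 0 in each villus list.
A window of 500 bp left 1 and 0 Myc promoter genes in Rb KO and control crypts. A window of 5 kb gave pair counts for Myc of 0 in Rb KO crypts only, 6 in both crypts and 1 in both villi, and 18, 43 and 2 Myc genes of the wider lists in Rb KO crypts, control crypts and control villi. The short motif was within 50 bp of 93.8% (Rb KO crypts), 100% (control crypts) and 100% (Rb KO villi) of promoter sites of the 10 genes. E2f3 and Myc promoter sites were close together in 1 gene of Rb KO crypts at 50 bp and in 1 gene of control crypts at 1 kb.
No paired analysis was possible because each group has 1 library and no test was made. Depth is unknown, so an absent site may lie below a threshold that is not given.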

Other observations

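Rank in Rb KO villi did not order presence in control villi. The Pcna site ranked at 2.02% in Rb KO villi and the Rpa2 site 307 bp upstream at 3%, and neither was listed in control villi. The Rfc4 site, at 2.01% in Rb KO villi, ranked at 2.09% in control villi, and the Rfc2 site, at 11.8% in Rb KO villi, was listed at the same base in control villi at 27.5%. These are values of 1 library each, and the variation between mice is unknown.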
